A study of Homo sapiens with 7 samples.

Results

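The nascent RNA of wild-type RPE1 cells was described from 3 bromouridine sequencing (BrU-seq) libraries, WT replicates 1 to 3. They were chosen by their label from the 7 libraries of the series, which also holds 3 CFAP20-KO libraries and 1 rescue library that were not used here. RPE1 is a human retinal pigment epithelial line immortalised with a telomerase (TERT) transgene. The WT cells are labelled RPE1 iCas9 p53/puro-dKO WT: they carry an inducible Cas9 and the double knockout given in that name, as all groups of the series do, so "wild type" refers to CFAP20 only. Cells received a 30 min pulse of 2 mM bromouridine and were harvested at once. Labelled RNA was captured with an anti-BrdU antibody and sequenced as paired 151-bp reads. The labels do not say whether the 3 libraries came from separate cultures, so the spread between them may be technical.

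BrU-seq reads the RNA made during the pulse, so its signal covers introns as well as exons and follows RNA polymerase II along the gene. Polymerase starts at the promoter, often slows or stops within the first kilobases, and then runs to the end of the gene, while the spliceosome removes introns from the growing RNA. The spliceosome recognises a donor site at the 5′ end of an intron, nearly always starting with GT, and an acceptor site at its 3′ end, nearly always ending with AG. Replication origins mapped by Okazaki fragment sequencing (OK-seq) tend to lie beside active genes.

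The deposited tables gave, for each library, the signal in 200-bp bins 100 kb to each side of transcript starts and of the centres of OK-seq origins, read along the direction of transcription, and a splice index from 0 to 1 per intron. Signal was a coverage scaled by the authors, and levels below are means per bin, that is, per length. Start-site tables held 9501, 9774 and 9575 windows in replicates 1, 2 and 3, of which 9332 were in all 3. Origin tables shared 4772 windows. The smallest non-zero value, the step, was 0.3, 0.0733 and 0.187 in the 3 libraries, and every value was a whole multiple of it (within 0.001 of a step). Replicate 2 thus had the finest step and the lowest floor, and replicate 1 the coarsest. The start-site tables summed to 38522521, 116896654 and 60600387 steps. A fragment covers neighbouring bins, so steps are not reads.

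Most of the transcribed signal came from a minority of start sites. A window was called active when its mean signal over the first 3 kb, averaged over the libraries, reached 0.0429, the 10th percentile of non-zero values. This held for 4813 of 9332 windows (51.6%). Another 3305 windows (35.4%) were at 0 in all 3 libraries, 4619 were above 0 in all 3, and 850 had signal in 1 library only. The 47 windows at 100 or more made up 0.504% of windows and 19.5% of the summed signal. The 1412 windows between 10 and 100 held 62.4%, and the 1915 windows between 1 and 10 held 17.2%. The top 1% of windows carried 26.97%, 27.9% and 27.6% of the signal in replicates 1, 2 and 3 (27.5% ± 0.485, SD, n = 3), and the top 10% carried 70.7% ± 0.892 (SD, n = 3). The concentration of signal was therefore alike in the 3 libraries, although their levels were not: the median active window stood at 4.95, 2.84 and 4.73, with replicate 2 lowest.

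Signal was far higher just after the start than before it, and lower again several kilobases on. In the mean profile of active windows, the highest bin lay 1000, 1200 and 1000 bp after the start in replicates 1, 2 and 3, at a level of 16.4, 8.12 and 14.6. The lowest bin upstream lay at -1400, -1200 and -1400 bp, at a level of 0.804, 0.489 and 0.845. The peak thus stood 20.4, 16.6 and 17.3 times above this trough. At the start site itself the level was 2.68, 1.79 and 2.79, and 200 bp further on it was 10.2, 5.65 and 9.55.

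**Figure D1:**
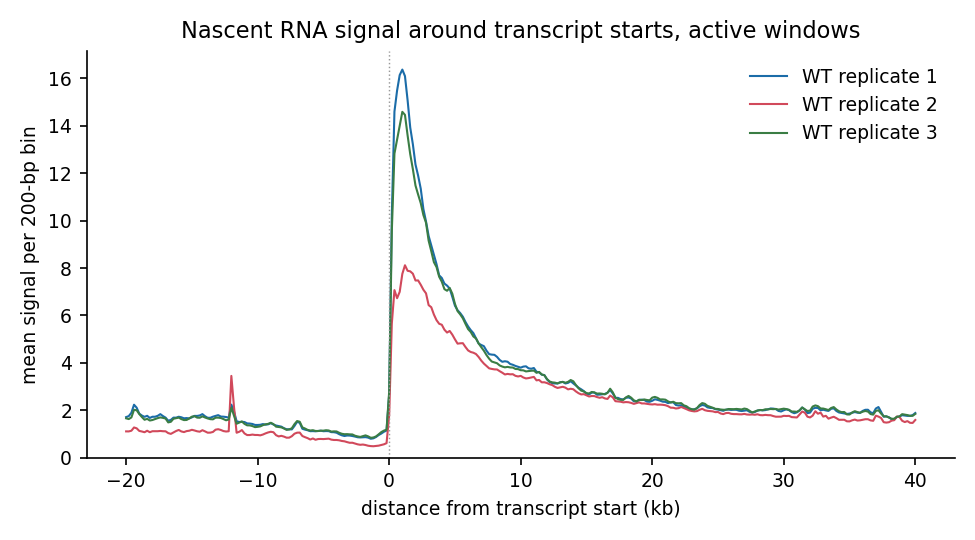
Mean signal per 200-bp bin (y axis) against distance from the transcript start in kb (x axis) over the 4813 active windows, one line per WT library. All 3 lines climb at the start and peak near 1 kb, at 16.4, 8.12 and 14.6; replicate 2 is lower at the peak and falls more slowly.

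The distance after which the profile was down to the peak level divided by 2 was 3600, 7200 and 4200 bp, and to the peak divided by 4 it was 8600, 22800 and 10400 bp. Replicate 2 had the flattest profile by both measures, and replicates 1 and 3 lay close together. At 10000 bp the 3 libraries nearly met, at 3.801, 3.45 and 3.69, and at 50000 bp they stood at 1.68, 1.34 and 1.63. Per window, the median log2 ratio of the first 2 kb over 10 to 20 kb was 2.05, 1.13 and 1.84 (1.67 ± 0.48, SD, n = 3; two-sided exact sign-flip permutation test over the 3 libraries, p = 0.25). With 3 libraries 0.25 is the smallest p this test can give, so no comparison below can pass a threshold of 0.05. The first 2 kb were higher in 87.5%, 83.3% and 85.9% of active windows, and in all 3 libraries in 76.0%. The 3 kb before the start were lower than the first 3 kb by a median log2 ratio of -4.55, -4.08 and -4.42.

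The excess of signal near the start was larger in windows of higher level. The mean over libraries of the median log2 ratio was 1.23 ± 0.33 (SD, n = 3) for windows with a first-3-kb level between 0.1 and 1, 1.73 ± 0.53 between 1 and 10, 2.16 ± 0.59 between 10 and 100, and 5.46 ± 0.67 at 100 or more. The 3-kb level that sorts these windows overlaps the first 2 kb of the ratio, so this order is a description and was not tested. Gene ends are not known for these windows, so 10 to 20 kb can lie past the end of a short gene. The genes of highest level named below include short ones, such as MYC (7518 bp) and CCN2 (3197 bp). The pseudocount of 0.0429 also draws the ratios of low windows towards 0.

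Inside genes of known extent the first kilobases also held the most signal. The start-site windows carry transcript identifiers without names. Named genes were therefore measured in the windows of 2034 selected origins, for which the authors gave coordinates and strand, with the GENCODE 44 annotation on hg38. Coding genes longer than 3 kb were used if the nearest other coding gene in the same direction was over 2 kb away, which left 14308, of which 2032 were located. In the 1586 genes above threshold with at least 10 kb covered, the median log2 ratio of the first 2 kb over the rest of the body was 1.82, 0.81 and 1.51, and 72.1% of genes had more signal in the first 2 kb in all 3 libraries. In 752 genes with 60 kb or more covered, the first 5 kb held a median of 25.4%, 15.8% and 24.3% of the signal of the first 60 kb. The next 5 kb held 11.3%, 12.2% and 11.6%, and the segment from 55 to 60 kb held 4.19%, 5.59% and 4.26%. Replicate 2 gave the first 5 kb the smallest share and each later segment the largest.

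Levels of the located genes spanned from 0 to about 200. The mean body signal over the 3 libraries was at or above 0.0656, the 10th percentile of non-zero values, in 1713 of 2032 genes, at or above 1 in 1357, at or above 10 in 262 and at or above 100 in 20. It was 0 in every library in 81 genes. The median gene stood at 2.27, and the 100 highest genes held 47.4% of the sum of all gene levels. Genes of 10 to 30 kb had the highest median level, 3.69, 2.76 and 3.84 in replicates 1, 2 and 3 (458 genes). Genes of at least 100 kb had medians of 1.28, 1.98 and 1.37 (614 genes), and as signal was lower far from the start, such a mean depends on the length covered. Of these genes 92.2% were above the threshold, against 60.2% of the 211 genes of 3 to 10 kb.

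The 10 highest genes had mean levels from 152 to 196. MYC, a transcription factor that drives growth, had a body signal of 240, 108 and 241 in replicates 1, 2 and 3, a mean of 196 ± 76.5 (SD, n = 3). TUBB, a beta-tubulin (chr6:30717435-30725538), had 222, 151 and 214, with a mean of 26.4 over its first 3 kb against 196 over the whole gene. HSP90AB1, a cytosolic chaperone, had 202, 114 and 236. Both of the latter have related copies elsewhere in the genome, so reads could be split or shared. RPS14, of the small ribosomal subunit, had 224, 119 and 208, and HMGA1, a chromatin architectural protein, had 265, 93.1 and 165. In all of these replicate 2 was the lowest library.

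RCC1, the nucleotide exchange factor for the GTPase Ran, had 217, 122 and 203, but its annotated extent also holds SNHG3 and its small nucleolar RNAs on the same strand: the first 3 kb averaged 1357 and the median bin of the gene 16.0, so RCC1 and its overlapping RNAs cannot be told apart. SLC25A6, a mitochondrial ADP/ATP carrier encoded in the pseudoautosomal region of the X chromosome, had 261, 50.3 and 203. CCN2, a secreted matrix protein and target of the YAP and TEAD factors (chr6:131948176-131951372), had 175, 149 and 160, the closest agreement of the 10. DKK1, a secreted Wnt inhibitor, had 165, 91.5 and 203, and PHLDA1, induced by growth factor signalling, had 135, 132 and 189.

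**Figure D2:**
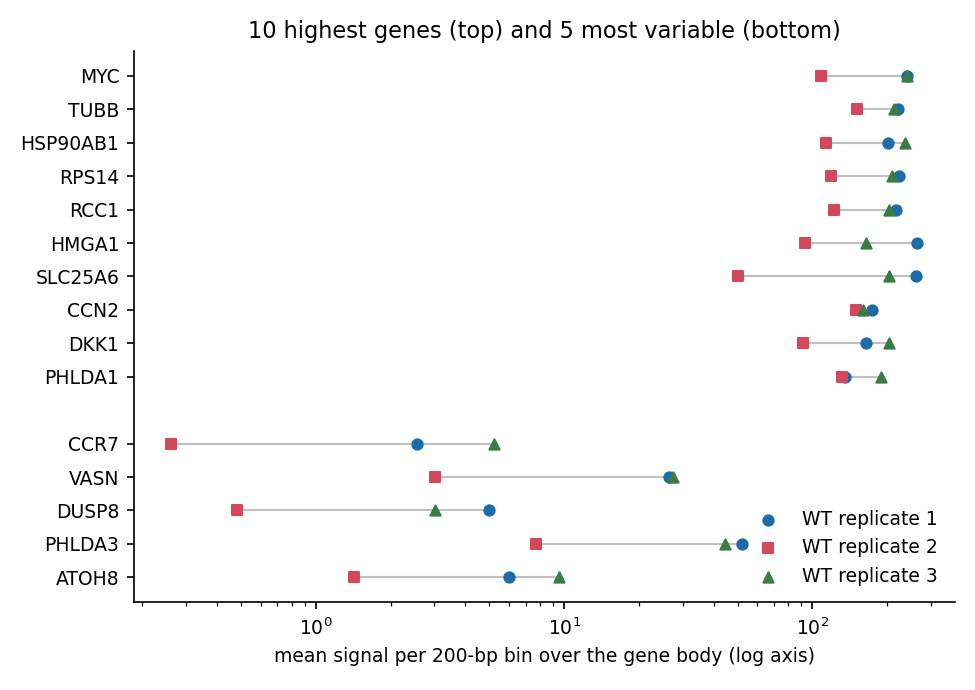
Mean signal per 200-bp bin over the gene body (x axis, log scale) of the 10 highest located genes and the 5 genes with the largest SD of log2 signal among genes at or above the median level, one point per WT library. Replicate 2 is the lowest library in all 15 genes, narrowly in PHLDA1 (132 against 135) and widely in CCR7 (0.261 against 2.55 and 5.24). Among 1713 genes above the threshold it is lowest in 611 and highest in 773.

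The 5 genes that varied most were all lowest in replicate 2. This was not so of genes at large: of 1713 genes above the threshold, replicate 2 was lowest in 611 and highest in 773. CCR7, a chemokine receptor, had 2.55, 0.261 and 5.24. VASN, a TGF-beta binding membrane protein, had 26.4, 3.01 and 27.5, and DUSP8, a MAP kinase phosphatase, had 4.98, 0.480 and 3.02. PHLDA3, which restrains AKT, had 51.9, 7.70 and 44.5, and ATOH8, a bHLH transcription factor, had 6.02, 1.42 and 9.53. Their gene bodies held 53.3% to 64.6% G and C, above 52.3%, the median of the 508 most GC-rich located genes.

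The difference between replicate 2 and the others followed base composition across genes. On the log2 scale, replicate 2 exceeded the mean of replicates 1 and 3 by a median of 0.50 in the 25% of located genes with the lowest GC and by 0.28 in the next 25%. The median difference was -0.04 in the 25% after that and -1.15 in the 25% with the highest GC. Across 1713 genes the Spearman correlation of this difference with GC was -0.681, a description with no p, since genes share the libraries. Replicate 1 minus replicate 3 had a correlation of 0.652 with GC, with medians from -0.43 in the lowest 25% to 0.46 in the highest. Each WT column of the splice table carries a different number whose meaning is not given, so replicate and any run it stands for cannot be told apart, and the part of base composition in the levels was not tested. Among the 397 genes of lowest GC with at least 10 kb covered the start-to-body log2 ratio was 2.13, 0.92 and 1.58, and in the 397 of highest GC it was 1.14, 0.46 and 1.09, so replicate 2 was lowest in both.

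Lists of genes with a shared function lay at different heights. The 5 located genes of MAP kinase feedback were all in the top 10% of located genes, with a median level of 44.7 against 2.27 over all located genes. Among them were the phosphatases DUSP5 (164, 85.7 and 104), DUSP6 (52.4, 33.4 and 48.4) and DUSP4 (50.9, 35.9 and 35.2), which switch off ERK and related kinases. Of 6 located immediate early genes 4 were in the top 10%: MYC, JUN (176, 103 and 154), IER5 (86.3, 49.0 and 92.0) and FOS, an AP-1 subunit (22.7, 12.3 and 7.95), which was highest in replicate 1. NFKBIA, the inhibitor of NF-kappaB, also stood high at 177, 77.3 and 64.9, while ISG15, an interferon-induced modifier, had 3.92, 0.656 and 2.85.

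All 3 located mitosis genes were in the top 10%: MKI67, the proliferation marker, had 36.9, 45.9 and 52.1, the kinase CDK1 had 26.1, 37.6 and 49.0, and the kinetochore protein CENPF had 13.5, 15.2 and 17.96. In these 3 genes replicate 1, not replicate 2, was the lowest. Of 5 splicing factors 4 were in the top 10%, led by TRA2B, a regulator of exon inclusion, at 60.3, 83.3 and 86.0. HNRNPC, which packages introns, had 22.2, 36.3 and 23.7. Of 5 replication genes all were above the median, with the helicase subunit MCM3 at 25.9, 22.3 and 32.5 and the licensing factor CDC6 at 29.8, 19.9 and 23.8. The translation factor EEF1A1 had 113, 92.7 and 122.6.

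ACTB, cytoplasmic beta-actin, had 42.3, 38.8 and 44.5, and ACTN4, an actin crosslinker, had 36.3, 16.4 and 38.2. A level is a mean over the annotated extent of the gene, 37494 bp for ACTB and 36280 bp for EEF1A1. Where the annotation is longer than the transcribed part, the mean is lowered, so levels of different genes are not strictly comparable. How much of each extent was transcribed was not tested. LOX, which crosslinks collagen, had 17.9, 20.1 and 26.7, and was the only one of 6 located matrix genes in the top 10%. LDHA, lactate dehydrogenase A, had 70.1, 44.03 and 103. The RNA polymerase II subunits POLR2L and POLR2H had 92.0, 16.3 and 83.8 and 23.98, 9.37 and 17.7. All 6 located Mediator genes lay above the median of all located genes, but only MED8 was in the top 10% (19.2, 8.14 and 15.8).

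Genes of the primary cilium and of the Hedgehog pathway, which signals through it, mostly lay at or below the median of all located genes. All 9 were above the threshold, as were 1713 of the 2032 located genes. Of 5 cilium assembly genes 1 was above the median of all located genes, OFD1 at 1.78, 2.75 and 2.82, and the dynein heavy chain DYNC2H1 stood at 1.57, 2.37 and 2.39. None of 4 Hedgehog genes was above it: the receptor GPR161 had 1.96, 2.11 and 1.98, the effectors GLI2 and GLI3 2.15, 2.37 and 1.47 and 0.948, 1.70 and 1.32, and EVC2, at the base of the cilium, 0.337, 0.109 and 0.320. Of 6 located very long or fragile-site genes 1 was above the median, FNDC3B at 5.17, 7.49 and 4.51, and the median of the 6 was 1.44. DPYD had 1.06, 2.33 and 1.22, MAGI1 had 1.034, 2.62 and 0.771, and EXOC4 had 1.09, 1.70 and 1.40. Some cilium and Hedgehog genes are long as well, such as DYNC2H1 (370454 bp) and GLI3 (303152 bp), while OFD1 spans 43213 bp and GPR161 58126 bp. Located genes of at least 100 kb had medians of 1.28, 1.98 and 1.37, and 92.2% were above the threshold. The part of gene length in the levels of these lists was not tested.

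Markers of cell identity were few among the located genes. Of 4 located markers of retinal pigment epithelium, ITGAV had 2.14, 3.30 and 2.78, RLBP1, a retinoid carrier of mature pigment epithelium, had 0.362, 0.126 and 0.177, TTR had 0.0130 in replicate 1 and 0 in the others, and RGR was at 0 in all 3. RUNX3, of blood cells, had 0.0239, 0.00695 and 0.0137. The neuronal markers SYT1 and MAP2 had 1.85, 3.98 and 1.81 and 1.107, 2.41 and 1.36, near the median of all located genes. None of the epithelial or endothelial markers was located, so their levels could not be read. Introns of some markers had a splice index. The epithelial KRT8 had a median of 0.806, 0.950 and 0.905 over 3 introns, and KRT7 and KRT18 were present with 2 and 1. The pigment epithelium marker OTX2 had 0.260, 0.158 and 0.269 over 2 introns, and PAX6 and the neuronal TUBB3 had 1 intron each. These values do not give a level.

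Around OK-seq origins, signal was higher downstream of the centre than at it or upstream of it on the transcribed strand. Over 4772 windows the mean within 2 kb of the centre was 1.52, 0.793 and 1.46 in replicates 1, 2 and 3. From 10 to 30 kb after the centre it was 3.04, 2.61 and 2.95, and from 10 to 30 kb before it 1.59, 1.27 and 1.67. The log2 ratio of after over before was 0.93, 1.04 and 0.82 (0.93 ± 0.11, SD, n = 3; exact sign-flip permutation p = 0.25). Against the average of both flanks, the centre had a log2 ratio of -0.60, -1.29 and -0.66 (mean -0.85 ± 0.38). It was close to the flank before it in replicates 1 and 3 and lower in replicate 2. In the authors' list of selected origins the strand is that of the nearest gene, so the sides of a window are not alike by construction.

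**Figure D3:**
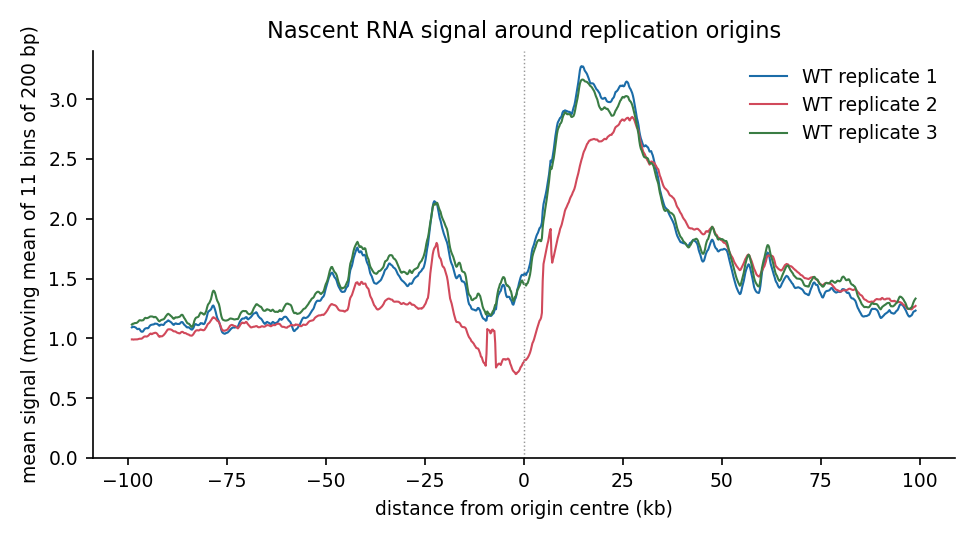
Mean signal over 4772 windows (y axis, moving mean of 11 bins of 200 bp) against distance from the origin centre in kb (x axis), one line per WT library. Signal is highest 10 to 30 kb after the centre (3.04, 2.61 and 2.95 on average) and lower at the centre (1.52, 0.793 and 1.46); the abrupt steps of replicate 2 before and after the centre come mostly from 1 window each.

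Whether origins as a whole stood above their distant surroundings differed between libraries. The log2 ratio of the mean within 10 kb over the mean at 50 to 100 kb was 0.46 in replicate 1 and 0.36 in replicate 3, but -0.20 in replicate 2 (mean 0.21 ± 0.35, SD, n = 3; exact sign-flip permutation p = 0.5). A 10% trimmed mean over windows turned the average ratio to -0.15. Single windows weighed heavily: the top 1% of windows, 48 in number, held 27.2%, 30.4% and 26.3% of the signal within 10 kb. In replicate 2, 1 window gave 77.8% of the mean at -8200 bp and 1 gave 63.9% of that at 5800 bp. Without them, these bins averaged 0.689 and 1.43 in place of 3.10 and 3.97.

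The 2738 windows outside the authors' selected list had 2.15, 1.08 and 2.00 within 2 kb of the centre and 1.78, 1.47 and 1.90 from 10 to 30 kb before it, so only replicate 2 was lower at the centre than before it. The 2034 selected windows had 0.678, 0.413 and 0.739 at the centre and 1.33, 0.998 and 1.36 before it, lower at the centre in all 3 libraries. The authors' name for the list speaks of an empty stretch upstream of the start site, and its rule is not given further. The low centre and the contrast with the other windows may follow from that choice, which was not tested.

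The shape differed with the distance to the nearest start. Among 2034 origins of the authors' selected list, 391 had a start within 5 kb, 966 at 5 to 20 kb and 677 farther off. Within 2 kb of the centre their signal was 2.09, 1.16 and 2.01 in the closest class, 0.388, 0.241 and 0.486 in the middle class and 0.273, 0.224 and 0.364 in the farthest. The middle class had the highest signal 10 to 30 kb after the centre, 5.00, 4.46 and 4.95, and a log2 ratio of after over before of 2.09, 2.38 and 2.04. In the farthest class this ratio was -0.17, -0.27 and -0.33, so the side after the centre was the lower one there in all 3 libraries. The classes are set by the place of the start, so where signal lies partly follows from the sorting. Their shapes are a description and were not tested. No signal at all lay within 2 kb in 53.4%, 41.0% and 46.8% of selected origins and in 41.4%, 28.7% and 33.8% of the 2738 others. The share at 0 was lowest in replicate 2, whose step was finest.

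Splicing was read from the deposited index of 6709 introns of 2979 genes, of which 6626 introns of 2936 genes had a value in all 3 libraries. Replicate 2 lacked 83. The sources used here do not define the index. Across 226 genes it had a Spearman correlation of 0.287, 0.282 and 0.313 with the log2 ratio of exon over intron bins, and a higher index is read here as more spliced RNA. The reads behind each value are unknown, so no interval could be given. On hg38, 98.5% of the introns started with GT and ended with AG, and 84 started with GC.

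Introns spanned the whole range of the index. The median was 0.538, 0.691 and 0.647 in replicates 1, 2 and 3, with replicate 1 lowest and replicate 2 highest. In every library above 0.5 were 50.4% of introns, and 26.0% were below it in every library. Above 0.9 in all 3 were 262 introns and below 0.1 in all 3 were 482. An index of 0 in every library was listed for 209 introns of 175 genes, 116 of them first introns. An index of 1 in every library was listed for 5, which were introns 3, 9, 10, 13 and 14 of TERT. The line carries a TERT transgene, so these values cannot be read as splicing of the endogenous gene. The median SD of an intron over the 3 libraries was 0.0804. Replicate 2 exceeded replicate 1 in 74.4% of introns.

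First introns had the lowest index. The median of 1680 first introns was 0.244, 0.465 and 0.312, against 0.640, 0.75 and 0.730 in 4946 later introns. The difference was -0.396, -0.285 and -0.418 (mean -0.366 ± 0.0710, SD, n = 3; exact sign-flip permutation p = 0.25). Introns numbered 2 had medians of 0.482, 0.653 and 0.593, and those numbered 4 had 0.652, 0.75 and 0.741. At number 10 the medians were 0.744, 0.826 and 0.819, and beyond 20 they were 0.796, 0.879 and 0.839. Most of the gap between the first intron and those beyond the 20th thus lay between intron 1 and intron 4, in each library. Within 758 genes that had both kinds, the first intron lay below the median of the later ones by a median difference of -0.169, -0.0966 and -0.172. It was the lower one in 74.5%, 67.7% and 74.3% of these genes, and in all 3 libraries in 59.0%.

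Numbering counts along the transcript the authors named, which is not always the main one. Of the 6626 introns, 5323 belong to an Ensembl canonical transcript of GENCODE 44, a check chosen after the data had been seen. The 1303 others had a median index of 0.170, 0.349 and 0.233, against 0.632, 0.75 and 0.720 in canonical introns. First introns made up 59.3% of the others. Among canonical introns alone the first still had a lower median, 0.356, 0.578 and 0.443, than the later ones, 0.681, 0.773 and 0.760. The mean difference was then -0.279 ± 0.0724 (SD, n = 3) in place of -0.366. Later introns outside canonical transcripts were low too, at 0.201, 0.362 and 0.268 (530 introns), against 0.155, 0.338 and 0.209 in first ones there (773 introns).

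**Figure D4:**
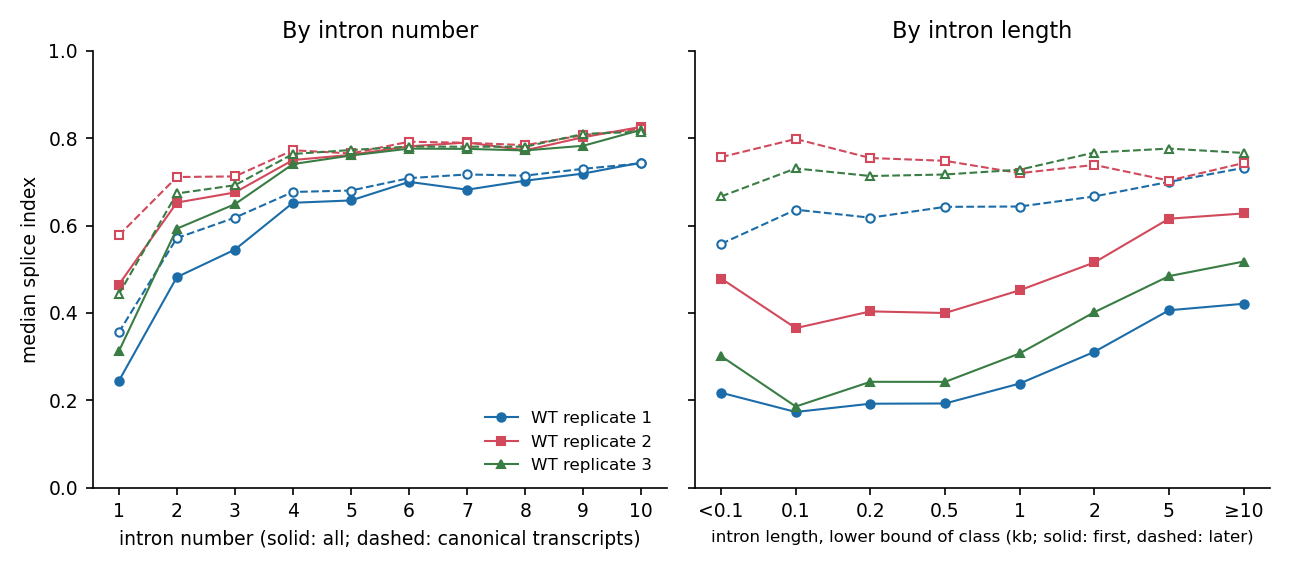
Median splice index (y axis) by intron number for all introns and for introns of canonical transcripts (left), and by length class for first and later introns (right), one colour and marker per WT library. First introns lie below later ones in every library, and their median goes up from introns under 1 kb (0.191, 0.394 and 0.240) to introns of at least 5 kb (0.414, 0.620 and 0.497), while later introns change little.

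Among first introns, longer ones had a higher index. First introns under 1 kb had medians of 0.191, 0.394 and 0.240 (862 introns), those of 1 to 5 kb 0.271, 0.486 and 0.355 (617 introns), and those of at least 5 kb 0.414, 0.620 and 0.497 (201 introns). The longest class exceeded the shortest by 0.223, 0.226 and 0.257 (mean 0.235 ± 0.0190, SD, n = 3; exact sign-flip permutation p = 0.25). Among canonical first introns the mean difference was 0.178 ± 0.0564. In later introns the same difference was 0.0803 and 0.0623 in replicates 1 and 3 and -0.0366 in replicate 2, so its direction was not shared. Over all introns it was 0.0716, 0.0402 and -0.0294 in replicates 1, 3 and 2. GC content changed with length as well: the median was 52.6% in introns under 1 kb and 45.6% in those of at least 5 kb.

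GC content and the index were related differently in the 3 libraries. In later introns, the 25% with the lowest GC had medians of 0.765, 0.751 and 0.781, and the 25% with the highest 0.566, 0.813 and 0.721. Highest minus lowest was -0.199, 0.0621 and -0.0599, negative in replicates 1 and 3 and positive in replicate 2. The libraries agreed closely where GC was low and spread where it was high. The part of base composition in the length and library differences was not tested.

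The index was also lower near the end of the transcript. Among introns numbered 4 or more, those ending under 500 bp from the transcript end had medians of 0.397, 0.670 and 0.556 (203 introns), and those ending 5 to 10 kb from it 0.743, 0.802 and 0.800 (591 introns). The difference was -0.346, -0.132 and -0.244 (exact sign-flip permutation p = 0.25). Last introns had 0.571, 0.712 and 0.706 against 0.725, 0.803 and 0.792 in the others. Transcripts with a single intron had the lowest values, 0.108, 0.234 and 0.112 over 377 introns, against 0.280, 0.518 and 0.364 for first introns of transcripts with several. The index was lower near the start as well: later introns that began under 500 bp from it had medians of 0.387, 0.650 and 0.516 (95 introns), those at 500 to 1000 bp 0.311, 0.553 and 0.460 (255 introns), and those over 50 kb away 0.788, 0.821 and 0.819. None of these classes was split by canonical transcript. Introns outside canonical transcripts had a low index wherever they lay, and their part in these differences was not tested.

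The splice-site letters of introns at both ends of the range are printed as examples, with the dinucleotides GT or GC and AG in capitals, read 5′ to 3′ on the transcribed strand from hg38, the donor as 3 exon and 6 intron bases and the acceptor as 20 intron and 3 exon bases. They are given as donor, then acceptor. The first 3 introns had an index near 1 and the last 4 had 0 in all 3 libraries.
TERT intron 3 (chr5:1280339-1282428, minus strand) donor: cagGTactg
TERT intron 3 acceptor: tgaggggctctctattgcAGaca
TNNT1 intron 10 (chr19:55137213-55137960, minus strand) donor: aagGTgagt
TNNT1 intron 10 acceptor: tccgcctcccccaccctcAGgca
NF2 intron 4 (chr22:29655677-29658188, plus strand) donor: cagGTgagg
NF2 intron 4 acceptor: gtcttccgttctccccacAGgga
BAG3 intron 1 (chr10:119656677-119657459, plus strand) donor: aagGTatct
BAG3 intron 1 acceptor: tgcctcttgatgcctggcAGggt
AP1G2 intron 20 (chr14:23559851-23559937, minus strand) donor: aagGTgagc
AP1G2 intron 20 acceptor: ccctgctctcctattcctAGgcc
ADIRF intron 1 (chr10:86968606-86970199, plus strand) donor: ccgGTgagg
ADIRF intron 1 acceptor: gccacatctctctgttccAGtgt
ADAMTSL4-AS1 intron 1 (chr1:150573822-150574123, minus strand) donor: catGCgcca
ADAMTSL4-AS1 intron 1 acceptor: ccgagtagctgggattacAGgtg
The donor of NF2 was the most frequent in the table, found in 119 introns (1.80%).

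Taking at most 1 intron per gene, the 8 with the highest mean index, of those with an SD of at most 0.1, lay in TERT, TNNT1, XRCC1, MYO1C, EIF3C, PLEC, GTPBP4 and NF2, with values from 0.969 to 1 in any library. Introns 3, 4, 6, 9, 10, 13 and 14 of TERT, the catalytic subunit of telomerase, were in the table. Their index was 1 in all 3 libraries except for 0.980 in replicate 2 at intron 4, and 0.978 and 0.946 in replicates 1 and 3 at intron 6. The line carries a TERT transgene, whose reads cannot be told apart here from those of the endogenous gene. The TERT values can therefore not be read as splicing of the endogenous gene, and the part of the transgene was not tested. EIF3C, a translation initiation factor, has a near-identical copy, EIF3CL, so its values of 1, 0.990 and 0.984 are uncertain. NF2, the tumour suppressor merlin, had 1, 0.989 and 0.980 at intron 4, and XRCC1, a scaffold of single-strand break repair, 1, 0.984 and 1 at intron 13.

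At the other end 209 introns tied at 0, and the 8 named are the first in alphabetical order: ABHD1, ACP4, ADAMTSL4-AS1, ADIRF, AP1G2, ARHGEF17-AS1, ATXN7L3-AS1 and BAG3. Of these, 3 are antisense genes, whose reads may not be told apart from those of the overlapping gene where strand was not used in counting. BAG3, a co-chaperone, had a gene body signal of 31.1, 18.8 and 24.96, so the gene was transcribed although this intron was listed at 0. Introns at 0 made up 2.57% of introns in canonical transcripts and 5.53% of the rest.

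Donor strength was scored as log-odds from the base frequencies of the introns in the table. In these, 83.5% had G just before the intron, 99.9% G and 98.7% T as its first bases, and 81.2% G at the fifth base. The score had a Spearman correlation with the index of 0.111, 0.112 and 0.117 over all introns, 0.197, 0.179 and 0.198 over first introns, and 0.0443, 0.0598 and 0.0547 over later ones. In canonical transcripts the mean correlation over all introns was 0.0601, against 0.113 in the whole table. First introns in the 25% with the highest donor score had medians of 0.311, 0.521 and 0.403, against 0.169, 0.368 and 0.220 in the lowest 25%. For later introns these classes differed by 0.0459, 0.0365 and 0.0374.

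The 83 introns starting with GC had a median index of 0.175, 0.364 and 0.333, against 0.542, 0.692 and 0.649 for the 6532 starting with GT. The difference was -0.367, -0.329 and -0.316 (mean -0.337 ± 0.0264, SD, n = 3; exact sign-flip permutation p = 0.25). Among first introns 45 GC introns had 0.0256, 0.0504 and 0.0345 and GT introns 0.25, 0.472 and 0.322. Later GC introns, 38 in number, had 0.524, 0.698 and 0.665 and GT introns 0.640, 0.751 and 0.732. In canonical transcripts 42 GC introns had 0.360, 0.521 and 0.570 and GT introns 0.633, 0.752 and 0.722, a mean difference of -0.219 in place of -0.337.

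A small class of introns is removed by the minor spliceosome, which recognises a long fixed donor (ATATCC or GTATCC) and a branch site related to CCTTAA. Of the 6626 introns 18 (0.272%) started with one of these donors on the transcribed strand, and 11 of them also held CCTTAA in their last 40 bases, a sequence found there in 1.09% of all introns. Some are printed to show the match, with the first 6 and last 2 intron bases in capitals.
HNRNPM intron 7 (chr19:8466389-8467534, plus strand) donor: tatGTATCC
HNRNPM intron 7 acceptor: agccttaattgtaataccAGcta
SPC24 intron 2 (chr19:11148118-11149093, minus strand) donor: cctATATCC
SPC24 intron 2 acceptor: tccttaacgacctgccctACtca
MTG1 intron 2 (chr10:133395778-133396162, plus strand) donor: cggATATCC
MTG1 intron 2 acceptor: ttttaccttaattttgccACatc
MYH9 intron 7 (chr22:36320897-36321757, minus strand) donor: cttGTATCC
MYH9 intron 7 acceptor: gctccttaatatttgcaaAGatc
The 11 introns had a median index of 0.225, 0.623 and 0.626 and spread from 0 to 0.891 in their means. The mean of 0 belonged to an intron of CDC42EP3-AS1, an antisense gene, and the next lowest was 0.124 in MTG1. HNRNPM, a splicing regulator, had 0.857, 0.893 and 0.924, and MYH9, non-muscle myosin, had 0.669, 0.720 and 0.684. SPC24, of the kinetochore, had 0.394, 0.745 and 0.626, and MTG1, a mitochondrial GTPase, had 0.0584, 0.199 and 0.116. The class therefore held introns near both ends of the range.

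Within single genes with many introns, the index was more often higher than lower at higher intron numbers. Of 103 genes with at least 8 introns, 61 had a positive rank correlation between intron number and index in all 3 libraries and 14 a negative one, with medians over genes of 0.270, 0.364 and 0.280. FLNA, the actin crosslinker filamin A, had 34 introns in the table, numbered up to 45. Over its introns 1 to 8 the median was 0.415, 0.766 and 0.524, over introns 9 to 20 it was 0.703, 0.916 and 0.762, and beyond the 20th 0.783, 0.938 and 0.912. The lowest was intron 3 (0.297, 0.767 and 0.371) and the highest intron 31 (0.971, 1 and 0.946), although both are short, at 96 and 89 bp. Replicate 2 was highest in each stretch of FLNA and replicate 1 lowest.

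**Figure D5:**
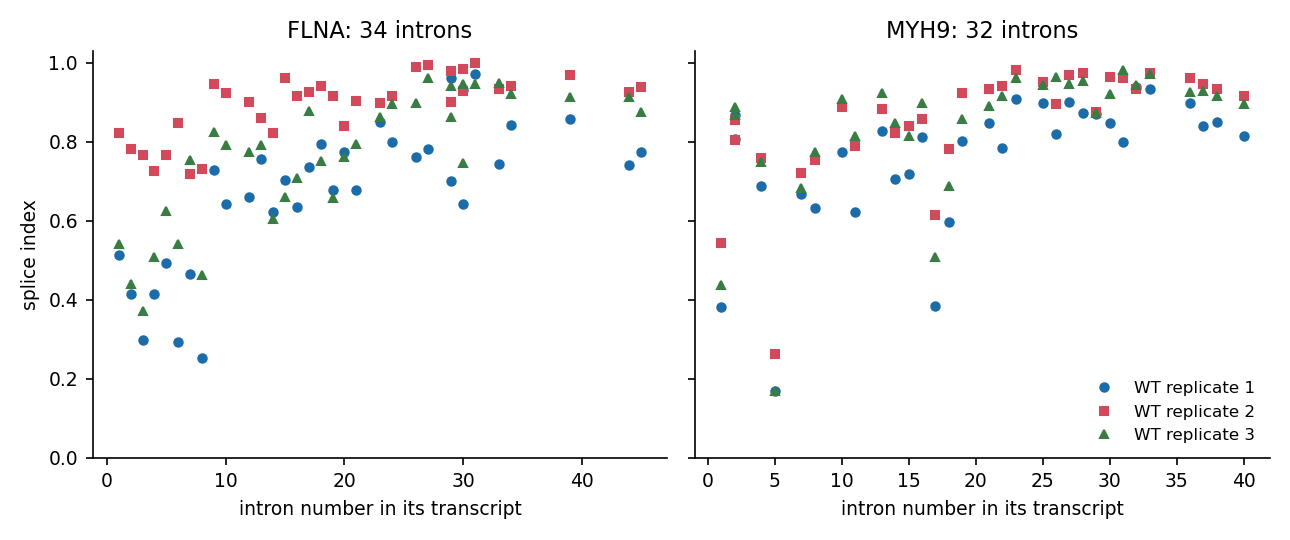
Splice index (y axis) against intron number (x axis) in FLNA (34 introns) and MYH9 (32 introns), one point per intron and WT library. In both genes values are lower at the start, and in FLNA the median goes from 0.415, 0.766 and 0.524 over introns 1 to 8 to 0.783, 0.938 and 0.912 beyond the 20th.

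MYH9 had medians of 0.669, 0.755 and 0.749 up to intron 8 and 0.860, 0.948 and 0.935 beyond the 20th. Low points were intron 17 (0.385, 0.615 and 0.508), intron 5 of an alternative transcript (0.170, 0.263 and 0.168) and intron 1 of another (0.381, 0.543 and 0.438). PLEC, the cytolinker plectin, started higher, at 0.785, 0.914 and 0.844, and ended at 0.938, 0.968 and 0.967. ACTN4 had 0.768, 0.874 and 0.801 up to intron 8 and 0.894, 0.937 and 0.924 from 9 to 20. SPTBN1, a spectrin, showed no shared trend: rank correlations of number and index were -0.135, 0.287 and 0.363.

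The index of later introns also varied between functional lists. Mediator genes had medians of 0.842, 0.878 and 0.861 (13 introns of 6 genes), cytoskeletal genes 0.784, 0.9 and 0.867 (144 introns), stress response genes 0.814, 0.859 and 0.866 (67 introns) and spliceosome genes 0.767, 0.816 and 0.810 (121 introns). Single genes weighed heavily. The counts and values of single genes given here include any first intron in the table, while those of the lists do not. MED25 had 6 introns with means from 0.951 to 0.986, while MED8 had a median of 0.639, 0.471 and 0.691 over 3. Among cytoskeletal genes FLNA had 34 introns, MYH9 32 and ACTN4 16. Intron number was not matched between lists. Replication genes lay lower, at 0.673, 0.676 and 0.706 (62 introns), near the 0.640, 0.75 and 0.730 of all later introns. MCM3 had a median of 0.545, 0.439 and 0.509 over 11 introns and MCM7 0.795, 0.874 and 0.846 over 8. Both are subunits of one helicase. Ribosomal protein genes spread between libraries, at 0.596, 0.822 and 0.753 (45 introns). MAP kinase feedback genes, high in signal, had a low index, 0.446, 0.402 and 0.579, but over 6 introns only. Across 240 genes the body signal and the median index of later introns had Spearman correlations of -0.133, 0.0626 and -0.0155, near 0 in all 3 libraries.

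Among genes of the lists, POLR2A, the largest polymerase II subunit, had a median of 0.903, 0.902 and 0.894 over 13 introns, and its lowest intron was the first. SUPT5H, an elongation factor, had 0.923, 0.948 and 0.984 over 9. FN1, fibronectin, had 0.818, 0.773 and 0.728 over 16 introns, and DHX9, an RNA helicase, 0.799, 0.796 and 0.800 over 16, with nearly equal values in the 3 libraries. In ITGA5, an integrin with 16 introns, the first was listed at 0 and the median was 0.653, 0.761 and 0.797. EVC, of the Hedgehog pathway, had 0.0602, 0.282 and 0.0717 over 4 introns. ITGA3, another integrin, and RPS19, a ribosomal protein, were far apart between libraries, with 0.484, 0.809 and 0.715 (8 introns) and 0.452, 0.897 and 0.729 (5 introns).

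By rank correlation, replicates 1 and 3 were the most alike. The Spearman correlation across 4813 active windows was 0.963 for replicates 1 and 3, 0.931 for 2 and 3 and 0.911 for 1 and 2. Across 1713 genes it was 0.961, 0.911 and 0.872, and across 6626 introns 0.911, 0.879 and 0.837, in the same order. The median absolute difference of the index was 0.0752, 0.0750 and 0.114, so by this measure replicates 2 and 3 were as close. These are descriptions with no p, since windows, genes and introns share the libraries.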

How the data were processed

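BrU-seq signal of 3 WT libraries was analysed. The submitters' processing notes name hg38 and these tools: STAR 2.7.7a, SAMtools 1.11, HOMER 4.8.2, R 4.0.5, Trim Galore 0.6.5 and FastQC 0.11.9. Order and settings of these steps are not stated. Density values are the authors' coverage signal, 1 value per bin of 200 bp, scaled per library to an unstated reference. The splice index was deposited as a fraction for each intron. Its other 4 per-sample index columns were not used. Splice sites read from hg38 were GT and AG in 98.5% of introns, as for the labelled build.

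Ratios and levels were computed with Python 3.11.15, NumPy 2.4.6, pandas 2.3.3, SciPy 1.17.1 and pysam 0.24.0, with the 10th percentile of non-zero values as pseudocount. Genes and intron names came from GENCODE 44 (6699 of 6709 introns matched by gene, 6531 by position). Gene bodies were capped at 100 kb, with at least 10 kb covered for longer genes. Exact sign-flip permutation tests were applied to the mean of a ratio or difference over the 3 libraries, not to differences between libraries. Named genes were the 10 highest, the 5 most variable among those at or above the median level, and up to 4 per list; named introns were the 8 highest and 8 lowest with an SD of at most 0.1 and at most 1 per gene, the genes with most introns and up to 3 genes per list, of which a selection is given. Members and lists were chosen with earlier results of these data known. Ratios and differences were tested on simulated data. No count model was used, since steps are not reads. Alternatives were other regions, thresholds, pseudocounts, summaries and introns, and leaving out each library. Some items are not reported here.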

Additional observations from a re-analysis of the deposited data

How the results depend on the processing

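No paired analysis was possible because only 1 group was used. The share of active windows was 60.2% with the first 10 kb, 43.2% with the 25th percentile as threshold and 49.6% to 52.0% when 1 library was left out. The log2 range from the 10th to the 90th percentile of active windows was 7.24; it was 6.81 with the first 10 kb, 5.44 with the higher threshold, 4.36 with a pseudocount of 1 and 7.10 to 7.48 without 1 library. The origin ratio averaged 0.21 and changed sign with a trimmed mean (-0.15) and with the mean within 5 kb against 20 to 50 kb (-0.59); without 1 library it was 0.08 (replicate 1 left out) to 0.41 (replicate 2 left out). The index difference by length over all introns, 0.0275, was 0.00540 without replicate 1 and 0.0559 without replicate 2. The median gene level was 2.94 in genes above the threshold, 7.13 over the first 3 kb, 2.27 without the filter and 2.09 from the median bin, an alternative chosen after seeing the data. The median log2 SD of genes was 0.38, and 0.25 to 0.45 when 1 library was left out, lowest without replicate 2. The correlation of donor score and index was 0.113 and fell to 0.0601 in canonical transcripts, also chosen after seeing the data. The causes were not tested. The window ratio of the first 2 kb over 10 to 20 kb and the differences of the index by number and by GC or GT start kept their direction under each alternative; that ratio was 0.94 to 2.09 and the difference by number -0.146 (within genes) to -0.407. Depth per intron is unknown, and the coarse step of replicate 1 limits low levels.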
